A study of Mus musculus with 8 samples.

Results

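Ccr2, Cxcr3, Cxcr6 and Cx3cr1 encode 4 chemokine receptors that effector T cells use to reach and hold positions in inflamed tissue. They were taken by symbol from the deposited count table, where all 4 of 4 were found among 24976 genes, and all 4 passed the low-count filter that left 13073 genes for testing. The table covers 8 bulk RNA sequencing libraries of CD8 T cells that had infiltrated B16-OVA melanomas, tumours of a mouse line engineered to carry ovalbumin. The tumours grew in Rag2-/- hosts, which lack endogenous T and B lymphocytes but keep myeloid and NK cells. Donor CD8 T cells entered the hosts 10 days after the tumour cells and were recovered 10 days after transfer. Donors were WT, or carried Cd8Cre with floxed NR4a1 and NR4a2 alleles and the ovalbumin-specific OT-ITg/+ receptor transgene. The second genotype is called dKO here, as labelled. Whether the WT donors carried OT-I is not stated, so receptor specificity and genotype cannot be told apart if they did not. From each genotype, CD3e+CD8+ cells were sorted as PD1+Tim3- or PD1+Tim3+, with 2 libraries in each of the 4 groups.

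Chemokine receptors are membrane proteins with several spans that couple to inhibitory G proteins and steer cells along gradients of secreted chemokines. CXCR3 binds the interferon-induced chemokines CXCL9, CXCL10 and CXCL11, and brings activated T cells into tumours. CXCR6 binds CXCL16, which dendritic cells display at their surface, and is abundant on tissue-resident and exhausted CD8 T cells. CCR2 binds CCL2 and its relatives and is best known on inflammatory monocytes, but is also made by activated T cells. CX3CR1 binds CX3CL1 and marks cytotoxic effector cells in blood. Tim3, the product of Havcr2, marks terminally exhausted cells, while PD1+Tim3- cells include the less differentiated pool.

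Total counts ran from 1944999 in the shallowest library (dKO PD1+Tim3-, replicate 2) to 13418762 in the deepest (WT PD1+Tim3+, replicate 2). Levels are given as CPM, the count scaled to a common library size with TMM factors. The sort label was checked with Havcr2, which stood 14.1-fold higher in WT PD1+Tim3+ than in WT PD1+Tim3- libraries and 16.4-fold higher in the dKO ones. The genotype label was not borne out by gene-level counts. For Nr4a1, the PD1+Tim3- libraries read 979 and 824 CPM (WT) against 1331 and 1488 (dKO), and the PD1+Tim3+ libraries 803 and 789 (WT) against 1194 and 1175 (dKO). Nr4a2 was at 990 and 958 against 937 and 929, and at 1034 and 979 against 954 and 984, in the same order. Neither passed as lower (edgeR adjusted p 0.914 and 0.921 for Nr4a2). Nr4a1 was higher in dKO by 0.64 ± 0.13 and 0.57 ± 0.13 on the log2 scale (SE, edgeR adjusted p 0.126 and 0.0944). It passed as higher in both populations with robust empirical Bayes (edgeR adjusted p 0.0232 and 0.0180). It also passed in both without the low-count filter (7.50e-04 and 0.00232), and in PD1+Tim3+ cells by limma-voom (adjusted p 0.0370). The labels do not name the floxed exons, so a shortened transcript could still be counted, and genotype directions below are those of the libraries labelled dKO. Among markers of CD8 T cells, Cd8a stood between 854 and 1223 CPM over all libraries and Cd3e between 274 and 368 CPM. Pdcd1 stood between 45.0 and 67.3 CPM, and Havcr2 at 2.28 to 3.62 CPM in PD1+Tim3- libraries. Cd8a rose with Tim3 in WT by 0.41 ± 0.12 on the log2 scale (SE, edgeR adjusted p 0.0389), where 8.25% of tested genes rose. In dKO its difference of 0.16 ± 0.12 did not pass (edgeR adjusted p 0.481).

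CCR2 is the receptor that draws cells toward CCL2, CCL7, CCL8 and CCL12. Ccr2 (ENSMUSG00000049103.14) occupies positions 124101950 to 124113557 of chromosome 9 (GRCm38, forward strand). WT PD1+Tim3- libraries held 39.5 and 47.1 CPM of it, and WT PD1+Tim3+ libraries 169 and 157 CPM. In dKO libraries the levels were 36.4 and 33.1 CPM in PD1+Tim3- cells and 182 and 187 CPM in PD1+Tim3+ cells. Each PD1+Tim3+ library was above each PD1+Tim3- library, and the 4 groups did not overlap one another. With Tim3, 32.7% of tested genes lay higher without overlap in WT and 26.2% in dKO. The share of genes that set all 4 groups apart was not computed. Neither genotype difference of Ccr2 passed (edgeR adjusted p 0.603 in PD1+Tim3- and 0.577 in PD1+Tim3+ cells). Ccr2 rose 3.78-fold with Tim3 in WT (log2 fold change 1.92 ± 0.12, SE, edgeR quasi-likelihood adjusted p 1.29e-05) and 5.25-fold in dKO (2.39 ± 0.13, adjusted p 3.33e-06). By p-value it ranked 4 among 13073 genes in both genotypes. The fold is from 278 and 227 counts to 996 and 2200 in WT, and from 201 and 63 to 976 and 1011 in dKO, so no library had fewer than 63 counts.

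CXCR6 keeps CD8 T cells near CXCL16-bearing dendritic cells. Cxcr6 (ENSMUSG00000048521.8) occupies positions 123806475 to 123811760 of chromosome 9 (forward strand). PD1+Tim3- libraries held 82.9 and 100.5 CPM of it in WT and 123 and 120 CPM in dKO. PD1+Tim3+ libraries held 283 and 267 CPM in WT, against 330 and 271 CPM in dKO. The populations did not overlap in either genotype, whereas the WT and dKO libraries overlapped within PD1+Tim3+ cells. Cxcr6 rose with Tim3 by 1.59 ± 0.14 on the log2 scale in WT (edgeR adjusted p 7.76e-05) and by 1.30 ± 0.14, or 2.46-fold, in dKO (adjusted p 3.13e-04).

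CXCR3 is the receptor for the interferon-induced chemokines. Cxcr3 (ENSMUSG00000050232.6) occupies positions 101731535 to 101734269 of chromosome X (reverse strand). PD1+Tim3- libraries held 75.1 and 88.3 CPM of it in WT and 102 and 96.0 CPM in dKO. PD1+Tim3+ libraries held 122 and 116 CPM in WT, against 122 and 111 CPM in dKO. WT PD1+Tim3- libraries were the lowest, dKO PD1+Tim3- came next, and the PD1+Tim3+ libraries of both genotypes overlapped at the top. Cxcr3 rose 1.46-fold with Tim3 in WT (0.55 ± 0.11, edgeR adjusted p 0.00837), while the dKO difference of 0.23 ± 0.12 did not pass (adjusted p 0.269). The WT call was lost without replicate 1 of WT PD1+Tim3- (0.44, adjusted p 0.0964), and without replicate 1 (0.51, adjusted p 0.0810) or replicate 2 (0.59, adjusted p 0.0564) of WT PD1+Tim3+.

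CX3CR1 is the fractalkine receptor of circulating effector cells. Cx3cr1 (ENSMUSG00000052336.7) occupies positions 119901616 to 120069879 of chromosome 9 (reverse strand) in GENCODE, with a RefSeq span from 120048683 to 120068296. PD1+Tim3- libraries held 5.69 and 4.35 CPM of it in WT and 4.34 and 6.82 CPM in dKO. PD1+Tim3+ libraries held 12.9 and 11.4 CPM in WT, against 9.87 and 9.79 CPM in dKO. The populations did not overlap, but the PD1+Tim3- groups did. These levels rest on 13 to 159 counts a library. Cx3cr1 rose 2.34-fold with Tim3 in WT (1.23 ± 0.22, edgeR adjusted p 0.00514). In dKO the difference of 0.95 ± 0.28 missed the threshold (adjusted p 0.0512). It passed with robust empirical Bayes (adjusted p 0.0495), with a filter of at least 1 CPM in 2 libraries (0.0495), without the low-count filter (0.0174) and without replicate 2 of WT PD1+Tim3- (0.0485).

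**Figure D1:**
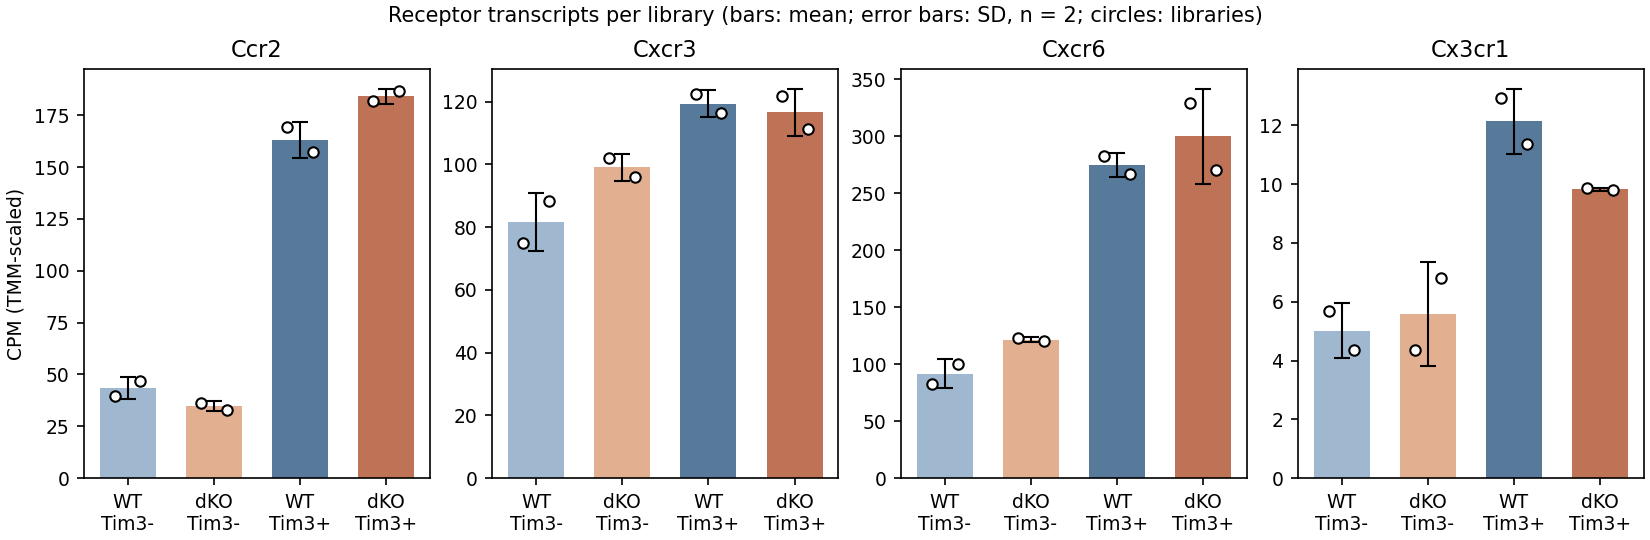
TMM-scaled CPM of Ccr2, Cxcr3, Cxcr6 and Cx3cr1 (vertical axis, from 0) in the 4 groups; circles are libraries, bars group means and error bars the SD of 2 libraries. Ccr2 stands at 33.1 to 47.1 CPM in PD1+Tim3- and 157 to 187 CPM in PD1+Tim3+ libraries, and Cxcr3 spans only 75.1 to 122 CPM.

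All 4 receptor genes rose with Tim3 in WT, where 17.0% of the 13073 tested genes passed, 8.25% as higher and 8.76% as lower. In dKO 2 of the 4 rose, where 9.93% passed, 5.21% as higher and 4.72% as lower. At an unadjusted p under 0.05 by edgeR, 4 of 4 stood out in WT and 3 of 4 in dKO, beside 31.6% and 23.7% of all genes. Their median log2 difference was 1.41 in WT and 1.13 in dKO, against a median of 0.01 over all tested genes in both. PD1+Tim3+ libraries stood above PD1+Tim3- libraries without overlap for 4 of 4 in each genotype, which held for 32.7% of all tested genes in WT and 26.2% in dKO. The opposite order held for 30.3% and 24.7% of genes and for 0 of the 4. In bulk RNA, more cells that make a receptor and more RNA per cell cannot be told apart. The labels do not tie libraries to separate donors, and the main fit treated the libraries as independent.

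Comparisons between the genes need a length scale. Per kilobase of annotated exon, Cxcr6 stood at 142 ± 5.66 CPM per kilobase in WT PD1+Tim3+ cells (SD, n = 2), Cxcr3 at 69.0 ± 2.46, Ccr2 at 24.1 ± 1.28 and Cx3cr1 at 2.69 ± 0.246. Per kilobase of the shortest annotated transcript the level of Ccr2 became 72.1 ± 3.83, beside 69.0 ± 2.46 for Cxcr3, so the order of these neighbours depends on the isoform and they do not differ beyond their spread on that scale. In WT PD1+Tim3- cells Cxcr6 and Cxcr3 were level on the exon scale, at 47.5 ± 6.46 and 47.2 ± 5.41 CPM per kilobase, with Ccr2 at 6.40 ± 0.788. Cx3cr1 was lowest on either scale in all 4 groups. These figures assume reads spread over whole transcripts, which the labels do not state.

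The 300 bases around 1 start site of each gene, 250 before and 50 after, are printed because all 4 genes rose together with Tim3 in WT cells. They come from RefSeq on GRCm38.p6, 5′ to 3′ on the strand of the gene, at chr9:124101933-124102232 for Ccr2, chrX:101734098-101734397 for Cxcr3, chr9:123806227-123806526 for Cxcr6 and chr9:120068247-120068546 for Cx3cr1. The Ccr2 window is set on a start at 124102183, which lies 265 bases inside the RefSeq gene span, so it does not cover the sequence before the outermost annotated start. The other windows are set on the outer end of the RefSeq span. Capitals mark matches to the Runx letters TGTGGT or the ETS core GAGGAAG on either strand.
Ccr2: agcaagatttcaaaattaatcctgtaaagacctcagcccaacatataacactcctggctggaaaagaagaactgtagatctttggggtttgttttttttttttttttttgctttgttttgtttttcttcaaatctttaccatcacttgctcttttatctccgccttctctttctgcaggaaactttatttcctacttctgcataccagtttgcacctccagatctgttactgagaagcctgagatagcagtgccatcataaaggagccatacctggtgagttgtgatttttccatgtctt
Cxcr3: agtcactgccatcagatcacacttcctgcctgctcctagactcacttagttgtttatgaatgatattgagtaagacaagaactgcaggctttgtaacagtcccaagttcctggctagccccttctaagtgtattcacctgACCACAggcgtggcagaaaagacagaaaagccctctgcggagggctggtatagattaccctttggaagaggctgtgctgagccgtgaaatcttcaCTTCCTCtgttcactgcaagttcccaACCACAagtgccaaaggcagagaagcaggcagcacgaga
Cxcr6: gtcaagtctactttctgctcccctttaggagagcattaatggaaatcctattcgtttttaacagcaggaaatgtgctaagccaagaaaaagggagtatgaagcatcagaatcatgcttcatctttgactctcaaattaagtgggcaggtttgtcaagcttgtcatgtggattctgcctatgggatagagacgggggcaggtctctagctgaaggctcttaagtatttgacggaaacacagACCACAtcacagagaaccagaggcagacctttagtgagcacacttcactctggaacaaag
Cx3cr1: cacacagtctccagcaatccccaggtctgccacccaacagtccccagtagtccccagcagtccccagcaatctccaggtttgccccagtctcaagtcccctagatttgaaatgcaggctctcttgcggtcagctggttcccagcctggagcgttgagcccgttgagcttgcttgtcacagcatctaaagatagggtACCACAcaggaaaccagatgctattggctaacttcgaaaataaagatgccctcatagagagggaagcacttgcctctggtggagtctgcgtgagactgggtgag
The Runx letters occur at 2 places in the Cxcr3 window and at 1 place each in those of Cxcr6 and Cx3cr1, all as ACCACA on the printed strand, and not in that of Ccr2. They occur in 16.9% of 27025 RefSeq promoters of this length. The ETS core occurs in the Cxcr3 window alone, as CTTCCTC, and in 13.5% of all promoters. None of the 4 windows holds the NR4A monomer element NBRE (AAAGGTCA, 1.46% of all promoters), the T-box letters AGGTGTGA (1.27%) or their core GGTGTGA (3.96%), which overlap each other, the STAT element TTCNNNGAA (8.47%) or the AP-1 element TGANTCA (7.93%). These are matches of letters in 1 window per gene, not measured binding.

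Between genotypes none of the 4 receptor genes passed in PD1+Tim3- cells, where 0.0459% of tested genes did (0.0153% higher, 0.0306% lower), or in PD1+Tim3+ cells, where 0.627% did (0.260% higher, 0.367% lower). All 3 tools, edgeR, DESeq2 and limma-voom, called 0 of 4 in both populations, with 1 of the 4 given no adjusted p by DESeq2 in PD1+Tim3- cells. At an unadjusted p under 0.05 by edgeR there were 3 of 4 in PD1+Tim3- cells, beside 8.27% of all genes, and 0 of 4 in PD1+Tim3+ cells, beside 12.0%. In PD1+Tim3- cells DESeq2 had 1 of 4 and limma-voom 2 of 4 under that unadjusted threshold. In PD1+Tim3- cells Cxcr6 stood at 122 ± 2.16 CPM in dKO against 91.7 ± 12.5 in WT (SD, n = 2), a log2 difference of 0.41 ± 0.14 (SE, edgeR adjusted p 0.494). Cxcr3 differed by 0.29 ± 0.12 in the same direction (adjusted p 0.576), with both dKO libraries above both WT libraries for each gene. Ccr2 differed by -0.30 ± 0.13 (adjusted p 0.603), both dKO libraries lying below both WT libraries, and Cx3cr1 by -0.02 ± 0.30 (adjusted p 0.998). Libraries that do not overlap in a given direction are common here, at 20.3% of genes upward and 21.0% downward.

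In PD1+Tim3+ cells the dKO differences were 0.18 ± 0.11 for Ccr2 (edgeR adjusted p 0.577), 0.13 ± 0.13 for Cxcr6 (0.778), -0.03 ± 0.11 for Cxcr3 (0.964) and -0.29 ± 0.20 for Cx3cr1 (0.641). Both dKO libraries were above both WT libraries for Ccr2 and below them for Cx3cr1, where 20.7% of genes lay apart upward and 20.7% downward. Ccr2 thus lay on opposite sides in the 2 populations, lower in dKO PD1+Tim3- and higher in dKO PD1+Tim3+ libraries. The difference between its Tim3 contrasts was 0.47 ± 0.17 (interaction, unadjusted p 0.0193, edgeR adjusted p 0.386) and did not pass. Interaction values for Cxcr3, Cxcr6 and Cx3cr1 were -0.32 ± 0.16, -0.28 ± 0.19 and -0.27 ± 0.37, with adjusted p of 0.556, 0.681 and 0.871. edgeR and limma-voom called 0 genes of the whole table for the interaction (0%) and DESeq2 95, none of them a receptor of the 4, with 1320 genes (10.1%) at an unadjusted p under 0.05 by edgeR. Cxcr3 and Cx3cr1, whose Tim3 contrasts passed in WT and missed in dKO, are therefore not shown to differ between genotypes.

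**Figure D2:**
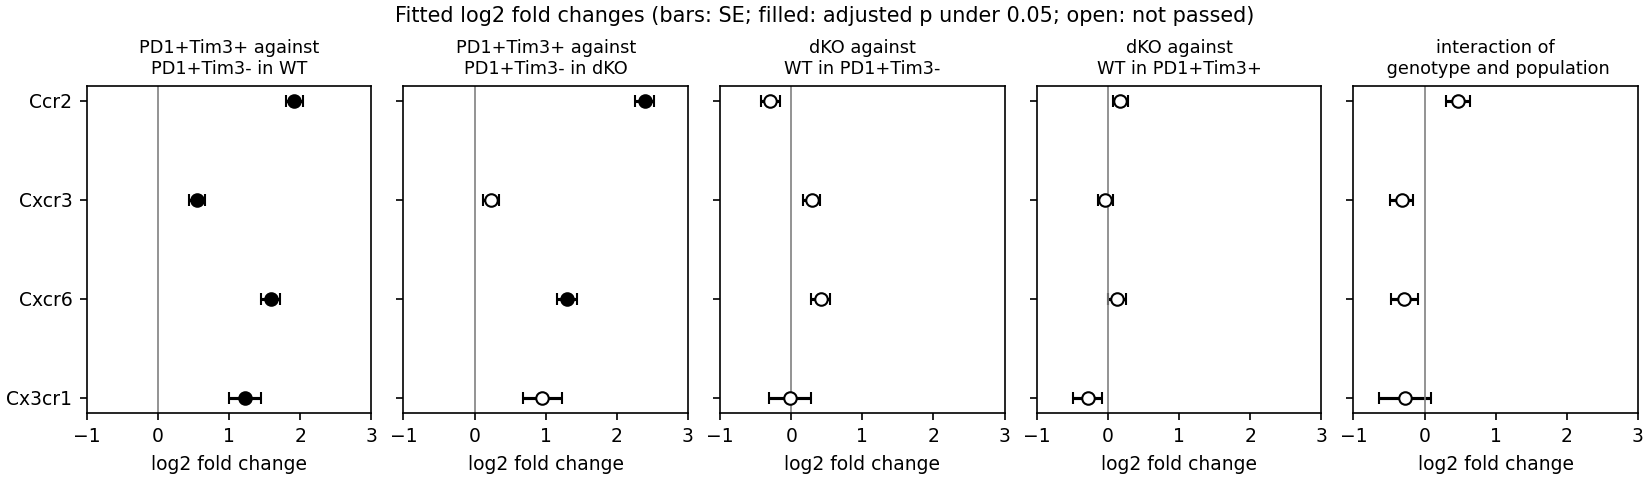
Log2 fold changes of the 4 genes (horizontal axis) in the 5 fitted contrasts, with SE bars; filled circles passed at an adjusted p under 0.05. The filled points all lie in the Tim3 contrasts, and the interaction of Ccr2 lies at 0.47 while those of the other genes lie below 0.

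Ratios of counts within a library do not depend on how libraries are scaled, and they describe how the receptor mix shifted. The ratio of Ccr2 to Cxcr3 counts was 0.527 and 0.533 in WT PD1+Tim3- libraries, and 0.356 and 0.344 in dKO PD1+Tim3- ones. Among PD1+Tim3+ libraries it was 1.38 and 1.35 for WT, against 1.49 and 1.68 for dKO. The 4 groups did not overlap, and dKO lay below WT in PD1+Tim3- cells and above it in PD1+Tim3+ cells. For single tested genes, dKO lay below WT without overlap for 21.0% in PD1+Tim3- cells. It lay above WT for 20.7% in PD1+Tim3+ cells. The share of other gene pairs whose ratios lay apart was not computed. The ratio of Cxcr6 to Cxcr3 was 1.10 and 1.14, then 1.21 and 1.25, then 2.31 and 2.30, then 2.70 and 2.44, in the same order of groups. That ratio was higher in dKO in both populations. Ccr2 to Cxcr6 stood at 0.477 and 0.468 in WT and at 0.295 and 0.275 in dKO PD1+Tim3- libraries, and overlapped between genotypes in PD1+Tim3+ cells at 0.599 and 0.588 against 0.551 and 0.690. Cx3cr1 to Ccr2 overlapped between genotypes in PD1+Tim3- cells, at 0.144 and 0.0925 in WT against 0.119 and 0.206 in dKO. In PD1+Tim3+ cells it was 0.0763 and 0.0723 in WT and 0.0543 and 0.0524 in dKO. An exact two-sided permutation test of 2 against 2 libraries cannot give a p below 0.333, so these ratios are descriptions.

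**Figure D3:**
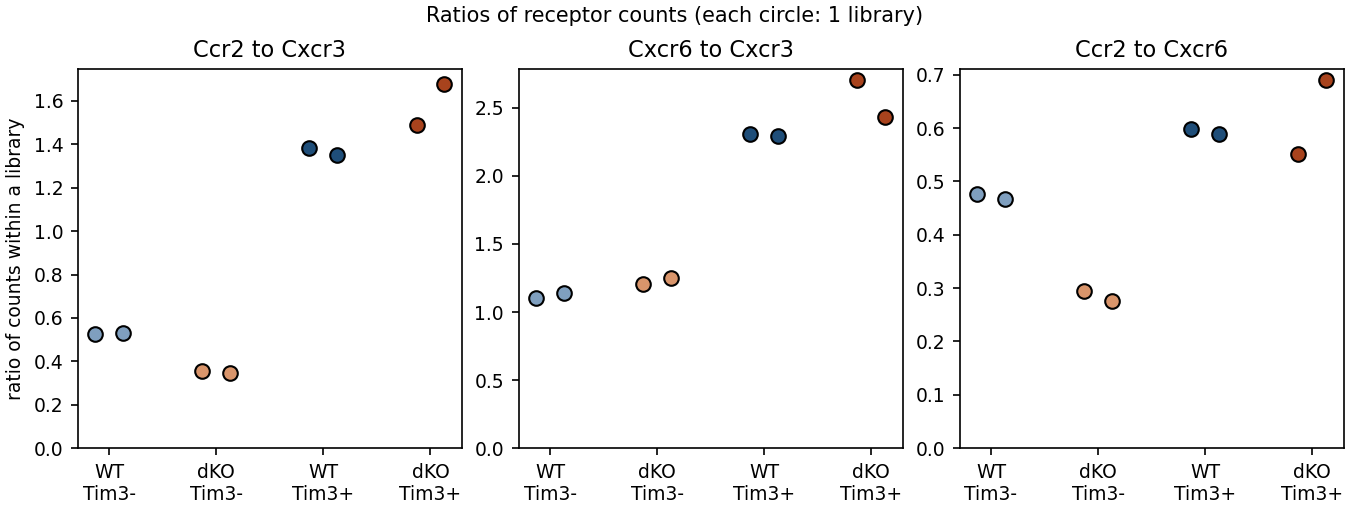
Ratios of raw counts between pairs of receptor genes (vertical axis, from 0) in each library, shown as 1 circle per library in the 4 groups. Ccr2 to Cxcr3 moves from 0.344 to 0.533 in PD1+Tim3- libraries to 1.35 to 1.68 in PD1+Tim3+ libraries.

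Of 19 other chemokine receptor genes reported here, 18 were in the table and 8 passed the low-count filter. The 10 that did not pass it reached at most 2.04 CPM (Ccr6) in any library. With Tim3, 1 of the 8 rose and 1 fell in WT, and 1 rose and 2 fell in dKO, with median log2 differences of 0.30 and 0.03, where 17.0% of all tested genes passed in WT (8.25% as higher) and 9.93% in dKO (5.21% as higher). Ccrl2, which encodes an atypical receptor that binds chemerin, rose by 1.24 ± 0.26 in WT and 1.08 ± 0.28 in dKO (edgeR adjusted p 0.00923 and 0.0361). Cxcr5, the receptor for the follicle chemokine CXCL13, fell with Tim3 in WT (-1.08 ± 0.23, adjusted p 0.0104) and in dKO (-1.89 ± 0.37, adjusted p 0.0120). Ccr7, the lymph node homing receptor, fell with Tim3 in dKO (-0.95 ± 0.11, adjusted p 6.83e-04) and stood at -0.17 ± 0.10 in WT (adjusted p 0.270). The difference between those Ccr7 contrasts was -0.78 ± 0.15 (interaction, edgeR adjusted p 0.200). It passed in 2 of 17 alternative settings, without the low-count filter (edgeR adjusted p 0.00643) and without replicate 1 of dKO PD1+Tim3+ (-0.85). Without that filter 331 genes passed for the interaction, against 0 in the main fit. Calls for Ccrl2 were lost in 3 of 18 alternative settings in WT and 9 of 18 in dKO, and for Cxcr5 in 2 of 18 and 1 of 18. Without replicate 1 of dKO PD1+Tim3-, the adjusted p was 0.401 for Ccrl2 and 0.233 for Cxcr5 in dKO. Without replicate 2 of WT PD1+Tim3+, it was 0.0751 and 0.161 in WT.

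Between genotypes 2 of these 8 genes fell in dKO PD1+Tim3+ cells, Ccr7 (-1.39 ± 0.11, edgeR adjusted p 2.85e-04) and the CXCL12 receptor gene Cxcr4 (-0.96 ± 0.12, adjusted p 0.00791). Over all tested genes 0.367% fell in that contrast. The Cxcr4 call was lost without either WT PD1+Tim3+ library (adjusted p 0.0740 and 0.0778). In PD1+Tim3- cells none of the 8 passed by edgeR, DESeq2 or limma-voom, with 6 given no adjusted p by DESeq2. There were 3 at an unadjusted p under 0.05 by each tool, beside 8.27% of all tested genes by edgeR. Ccr7 (-0.61 ± 0.11, adjusted p 0.109) did pass there in edgeR with robust empirical Bayes (adjusted p 0.0214), without the low-count filter (0.00318) and without replicate 1 or replicate 2 of dKO PD1+Tim3+ (0.0423 and 0.0422). The 4 inflammatory receptors had differences of -0.29 to 0.18 in the same PD1+Tim3+ contrast.

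**Figure D4:**
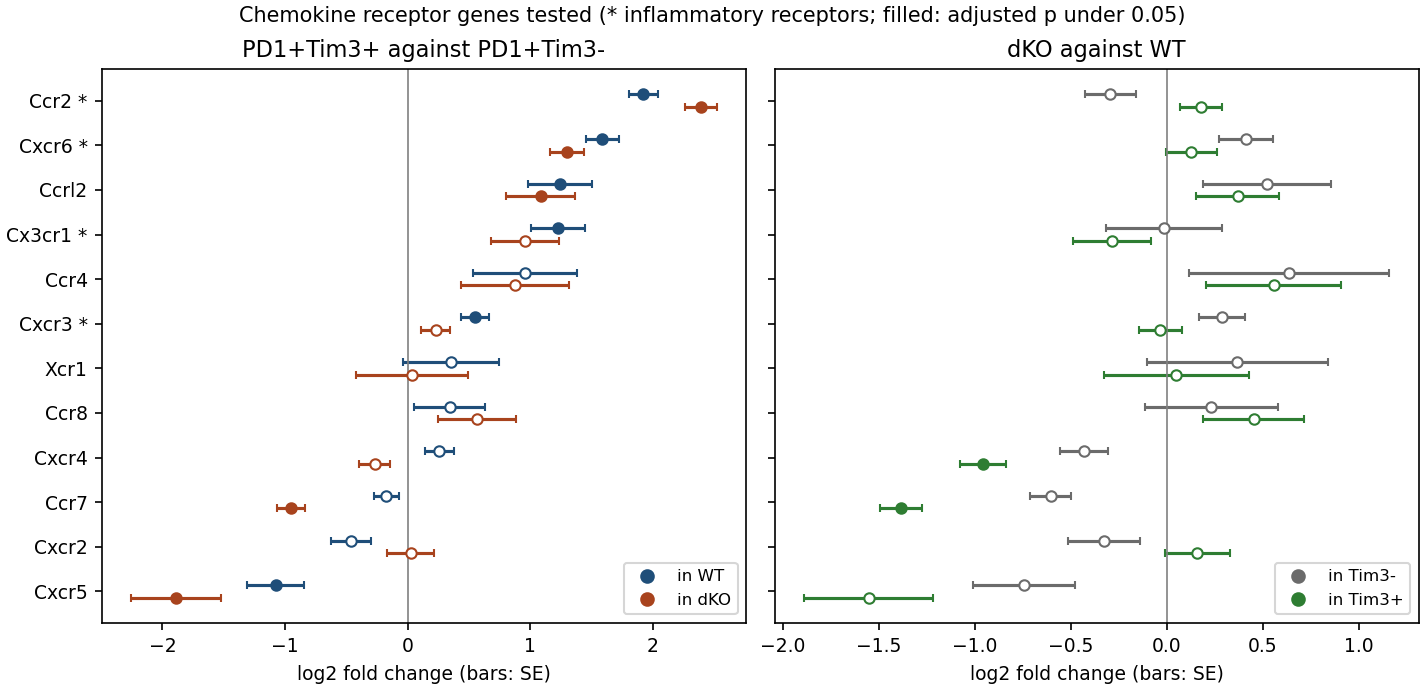
Log2 fold changes with SE bars (horizontal axes) of the 4 inflammatory and 8 other tested chemokine receptor genes, with an asterisk on the inflammatory ones: left, the Tim3 contrast by genotype; right, dKO against WT in each population. Filled circles passed at an adjusted p under 0.05; Ccr2 and Cxcr6 lead on the left at 1.92 and 1.59 in WT, and on the right Ccr7 and Cxcr4 are the filled genes.

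Of 9 ligand genes of the 4 receptors, 8 were in the table and 2 passed the low-count filter. The 6 others, among them Ccl2, Cxcl9 and Cxcl16, had at most 3 counts in any library, and Cx3cl1 was not analysed here. Cxcl10, a ligand of CXCR3, rose with Tim3 in WT from 33.4 and 30.9 to 80.4 and 79.2 CPM (1.31 ± 0.15, edgeR adjusted p 5.92e-04). It was already at 78.9 and 75.6 CPM in dKO PD1+Tim3- cells, above WT (1.27 ± 0.16, adjusted p 0.0201), a call lost in 8 of 17 alternative settings, 6 of them the removal of 1 library (adjusted p up to 0.525 without replicate 1 of dKO PD1+Tim3-). In dKO PD1+Tim3+ libraries Cxcl10 stood at 116 and 83.3 CPM, and its Tim3 difference in dKO was 0.36 ± 0.15 (edgeR adjusted p 0.159). The difference between its Tim3 contrasts did not pass (-0.94 ± 0.21, interaction, edgeR adjusted p 0.202), but did in 2 of 17 alternative settings. Cxcr3 and Cxcl10 were thus both lowest in WT PD1+Tim3- libraries, although the Cxcr3 difference between genotypes did not pass. Ccl7, a ligand of CCR2, read 1080 and 535 CPM in the PD1+Tim3- libraries of WT, against 615 and 785 CPM for dKO. It fell with Tim3 to 312 and 360 CPM in WT (-1.27 ± 0.29, adjusted p 0.0122) and to 262 and 396 CPM in dKO (-1.09 ± 0.29, adjusted p 0.0386), opposite in direction to Ccr2. Those calls were lost in 4 of 18 and 7 of 18 alternative settings. Without replicate 1 of WT PD1+Tim3- the WT value was -0.66 (adjusted p 0.118), and without replicate 2 of dKO PD1+Tim3- the dKO value was -0.90 (adjusted p 0.211).

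Genes that carry or end the receptor signal were listed as 25, of which 24 were tested. With Tim3, 7 rose and 0 fell in WT, and 4 rose and 0 fell in dKO, with medians of 0.14 and 0.28. Over all tested genes 8.25% rose and 8.76% fell in WT, and 5.21% rose and 4.72% fell in dKO. Rgs1 and Rgs16 encode proteins that shorten G-protein signals, and both rose in WT (0.85 ± 0.12, edgeR adjusted p 0.00197, and 0.58 ± 0.13, adjusted p 0.0111). They rose in dKO as well (0.64 ± 0.12, adjusted p 0.0106, and 0.48 ± 0.13, adjusted p 0.0417). In WT the G-protein subunit gene Gnb1 (0.53 ± 0.12), the receptor-desensitising arrestin gene Arrb2 (0.49 ± 0.10), the motility GTPase gene Rac2 (0.57 ± 0.15) and the PI3K subunit gene Pik3r5 (0.45 ± 0.12) also rose. In dKO the others were Gng2 (0.76 ± 0.14), of the same G-protein complex, and Pik3cg (0.53 ± 0.15), the catalytic partner of Pik3r5. The dKO calls of Rgs16 and Pik3cg were lost in 10 of 18 and 14 of 18 alternative settings, and in WT those of Gnb1, Arrb2, Rac2 and Pik3r5 were lost without replicate 1 of WT PD1+Tim3- (adjusted p 0.129, 0.0937, 0.188 and 0.110). Of the Rgs1 calls, the dKO one was lost without replicate 1 of dKO PD1+Tim3- (adjusted p 0.117), and the WT call of Rgs16 without replicate 1 of WT PD1+Tim3+ (adjusted p 0.132). Between genotypes edgeR, DESeq2 (3 with no adjusted p in PD1+Tim3- cells) and limma-voom called 0 of the 24 in either population, with 4 and 3 at an unadjusted p under 0.05 by edgeR in PD1+Tim3- and PD1+Tim3+ cells, beside 8.27% and 12.0% of all genes.

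Of 11 transcription factor genes with known ties to effector, exhausted or memory programmes, 5 rose and 2 fell with Tim3 in WT, and 4 rose and 2 fell in dKO, with medians of 0.12 and 0.22, beside 17.0% of all tested genes passing in WT and 9.93% in dKO. Tbx21, whose product T-bet is an activator of Cxcr3, followed an order of groups like that of Cxcr3: PD1+Tim3- libraries held 72.5 and 74.0 CPM in WT and 105 and 104 in dKO, and PD1+Tim3+ libraries 117 and 119 CPM in WT and 127 and 116 in dKO. It rose with Tim3 in WT (0.69 ± 0.10, edgeR adjusted p 0.00214) and stood at 0.22 ± 0.10 in dKO (adjusted p 0.229). The difference between those Tbx21 contrasts did not pass (-0.47 ± 0.14, interaction, adjusted p 0.303). Neither did its genotype difference in PD1+Tim3- cells (0.51 ± 0.10, adjusted p 0.133). A link between Tbx21 and Cxcr3 was not tested. Bhlhe40, Id2 and Prdm1, factors of effector and resident cells, rose in both genotypes, by 1.14 ± 0.12, 0.84 ± 0.12 and 1.61 ± 0.25 in WT. Tcf7 and Id3, of stem-like and memory cells, fell in both, with log2 differences of -0.80 ± 0.11 and -1.03 ± 0.13 in WT. Zeb2, which drives terminal effector cells, rose 1.48-fold in WT (edgeR adjusted p 0.0292) and 2.27-fold in dKO (edgeR adjusted p 0.00642). In WT DESeq2 called 6 of the 11 genes, and Zeb2 was not among them. The other alternative settings were not read for Zeb2 in WT. The dKO call of Zeb2 was lost in 1 of 18 alternative settings, without replicate 1 of dKO PD1+Tim3- (1.36). That of Prdm1 was lost in 3 of 18, among them the removal of replicate 1 (2.12) or replicate 2 (1.12) of dKO PD1+Tim3-. Between genotypes Id3 rose in dKO PD1+Tim3- cells (1.02 ± 0.13, adjusted p 0.0201, lost in 8 of 17 alternative settings). Eomes, a T-box factor of memory cells, fell in dKO PD1+Tim3+ cells (-0.87 ± 0.14, adjusted p 0.0183, lost in 5 of 17).

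Ccr2, Cxcr6 and Cx3cr1 share chromosome 9 with other receptor genes, so their neighbours were read as well. Cxcr6 lies wholly within an intron of Fyco1, an autophagy gene on the opposite strand from 123789500 to 123851899, with 0 exonic bases shared. Fyco1 stood between 25.5 and 35.2 CPM in all libraries and did not pass with Tim3 in WT (0.24 ± 0.11, edgeR adjusted p 0.181) or in dKO (0.11 ± 0.12, adjusted p 0.663), where Cxcr6 rose. Of 15 neighbouring genes reported here 7 were tested, of which 1 rose with Tim3 in WT, Csrnp1 (0.41 ± 0.13, adjusted p 0.0477, lost in 9 of 18 alternative settings), beside 8.25% of all genes. In dKO edgeR, DESeq2 and limma-voom called 0 of the 7, where edgeR called 9.93% of all tested genes. At an unadjusted p under 0.05 by edgeR there were 0 of the 7, beside 23.7% of all tested genes. Stretches of 36 bases in Ccr2 transcripts also occurred in transcripts of other genes in 191 of 6750 cases (2.83%). None of the stretches of Cxcr3 or Cxcr6 did, and 2.31% of those of Cx3cr1. Counts of Ccr2 and Cx3cr1 could have exchanged reads there, since how ambiguous reads were counted is not stated. Cx3cr1 shares 78 exonic bases with Gm33858 on the other strand, and the strand setting is not known.

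The genes with levels most like each receptor over the 8 libraries were found by Pearson r of log2 CPM. They were Evi2a (0.997), Arhgap26 (0.993) and Runx2 (0.993) for Ccr2, and Cish (0.998), Lxn (0.996) and Lamtor1 (0.995) for Cxcr6. For Cxcr3 they were Eme1 (0.992), Tspan31 (0.990) and Trex1 (0.986), and for Cx3cr1 LOC328066 (0.989), Ppt1 (0.980) and Fcgrt (0.977). Among the 4 receptors the likeness ran from 0.762 for Cxcr3 with Cx3cr1 to 0.949 for Ccr2 with Cxcr6. The points share libraries and the Tim3 sort, and each r was picked as the highest among 13069 genes. Cish, which encodes a cytokine-induced brake on receptor signals, held 46.4 and 53.9 CPM in PD1+Tim3- libraries of WT and 68.0 and 69.3 of dKO, then 155 and 150 CPM in PD1+Tim3+ libraries of WT and 202 and 163 of dKO. Runx2, a Runx family factor, held 92.4 and 100.5 CPM in PD1+Tim3- libraries of WT and 80.9 and 78.7 of dKO, then 227 and 184 CPM in PD1+Tim3+ libraries of WT and 210.0 and 209 of dKO. Both genes were higher in every PD1+Tim3+ library.

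Ccr2 and Cx3cr1 are also made by monocytes and macrophages, so markers of other cells were read in each library. Sums over a marker list are on unscaled CPM, and values of single markers on the TMM-scaled CPM used above. The 10 macrophage and monocyte markers in the table summed to 9.25 to 25.0 CPM in PD1+Tim3- and 20.3 to 22.4 CPM in PD1+Tim3+ libraries, which overlap. Of the 3 tested, Itgam rose with Tim3 in WT, from 1.56 and 1.04 to 3.91 and 3.43 CPM (1.41 ± 0.43, edgeR adjusted p 0.0442), and stood at 1.11 ± 0.45 in dKO (adjusted p 0.163). Over all tested genes 8.25% rose in WT and 5.21% in dKO. Cd68 and Cd14 reached 10.9 and 10.8 CPM, and neither passed with Tim3 in WT (0.13 ± 0.22 and -0.98 ± 0.32, adjusted p 0.718 and 0.0584) or in dKO (adjusted p 0.974 and 0.505). Csf1r reached at most 0.905, Lyz2 0.714 and Fcgr1 0.142 CPM.

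The 8 dendritic cell markers summed to 26.4 to 35.0 CPM in PD1+Tim3- and 49.9 to 63.6 in PD1+Tim3+ libraries, which do not overlap. PD1+Tim3+ libraries lay above PD1+Tim3- ones without overlap for 32.7% of single tested genes in WT and 26.2% in dKO. Of the 4 markers tested, 2 rose with Tim3 in WT and 1 in dKO, beside 8.25% and 5.21% of all tested genes. Itgax, at 22.2 to 28.8 CPM in PD1+Tim3- and 44.3 to 49.3 CPM in PD1+Tim3+ libraries, rose in both (edgeR adjusted p 6.68e-04 and 0.00776). H2-Ab1, a class II gene, rose in WT from 0.995 and 0.415 to 6.80 and 4.21 CPM (2.76 ± 0.47, adjusted p 0.00403) and stood at 0.78 ± 0.58 in dKO (adjusted p 0.460). Clec9a reached at most 0.680 CPM.

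The 5 NK cell markers summed to at most 15.8 CPM in PD1+Tim3-, 33.8 to 36.6 in WT PD1+Tim3+ and at most 21.2 in dKO PD1+Tim3+ libraries. Of the 4 tested, 2 rose with Tim3 in WT and 1 in dKO, where 8.25% and 5.21% of all tested genes rose. Fcer1g, a signalling chain of Fc receptors, rose in WT (1.74 ± 0.31, edgeR adjusted p 0.00483) and in dKO (2.59 ± 0.56, adjusted p 0.0190), where 1 PD1+Tim3- library held 0 counts. Klrb1c, the NK1.1 gene, rose in WT (0.99 ± 0.20, adjusted p 0.00799) and stood at 0.30 ± 0.26 in dKO (adjusted p 0.536). Ncr1 was at 0.214 CPM or less.

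The sum of Cd4 and Foxp3, markers of CD4 and regulatory T cells, was 0.208 to 0.511 CPM in WT PD1+Tim3- and 2.38 to 2.73 CPM in WT PD1+Tim3+ libraries, against 0.725 to 1.54 and 0.535 to 1.71 CPM in dKO. Cd4 was at 0 CPM in every PD1+Tim3+ library and at most 0.525 CPM in PD1+Tim3- ones. The PD1+Tim3+ sums are thus Foxp3 alone. Foxp3 rose with Tim3 in WT from 0.427 and 0.207 to 2.55 and 2.29 CPM (2.75 ± 0.61, edgeR adjusted p 0.0108) and stood at 0.45 ± 0.71 in dKO (adjusted p 0.769). No neutrophil, B cell or B16 melanoma marker that was tested passed with Tim3 by edgeR (1, 1 and 3 tested), with Pmel at an unadjusted p of 0.0356 in WT and 0.0172 in dKO and Cd79b at 0.0334 in dKO. Their sums were at most 4.34, 5.88 and 21.6 CPM. The part of the markers that moved with Tim3 in the contrasts of the receptors was not tested.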

How the data were processed

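The authors deposited 1 table, with raw counts by gene symbol for 8 libraries. Per the submitters' processing notes, mm10, cutadapt 1.18 and Bowtie2 2.2.5 were used, with no role or order named. The counting tool, annotation, strand setting and library type are not stated in the labels. The 1 line without a gene name equals the column totals and was left out. Columns that name PD1 but not Tim3 were taken as PD1+Tim3-, because the Tim3+ columns carry their own name.

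Counts were tested with edgeR 4.0.16 in R 4.3.3 (TMM, default low-count filter, quasi-likelihood F test, 4 group means, 4 residual degrees of freedom), with Benjamini-Hochberg adjustment over 13073 genes and a threshold of 0.05. SE was derived from each log2 difference and its F value. The procedure was tested on simulated counts. DESeq2 1.42.0, limma-voom (limma 3.58.1), other scalings, filters, blocks and left-out libraries were alternatives. Results for 1 listed gene are not reported here. The members, gene lists and motifs were chosen with earlier results of these data known. Named genes are the 4 receptors, up to 6 passing genes of each list by p, the 3 genes of highest Pearson r with each receptor (log2 CPM, prior count 2) and the genes that check the labels. Libraries of 1 group differed by a chi-square of 3.10 to 16.1 per gene, more than sampling noise. P-values set a group difference against the spread between these libraries, which was moderated over the tested genes. The labels do not say whether that spread is between animals. Gene positions and exon lengths come from the GENCODE annotation of GRCm38.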

Additional observations from a re-analysis of the deposited data

How the results depend on the processing

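Of 20 results for the 4 receptors, 15 kept their direction and their side of the threshold under every alternative. With Tim3, the log2 difference of Ccr2 stayed between 1.80 and 2.04 in WT and between 2.34 and 2.48 in dKO, and that of Cxcr6 between 1.46 and 1.73 in WT. Cx3cr1 in dKO passed with a filter of 1 CPM in 2 libraries (0.96), without a low-count filter (0.96) and with robust empirical Bayes (0.95), and ran from 0.53 to 1.18 with 1 library left out. Cxcr3 with Tim3 in WT ran from 0.44 to 0.67 with 1 library left out. Small genotype differences changed sign. Cx3cr1 in PD1+Tim3- cells was 0.033 by DESeq2, 0.0043 with upper quartile factors and -0.24 to 0.41 with 1 library left out. In PD1+Tim3+ cells Cxcr3 ran from -0.10 to 0.035 and Cxcr6 from -0.020 to 0.27. Among other genes, Ccl7 between genotypes in PD1+Tim3+ cells ran from -0.36 to 0.24, the interactions of Ccl7 from -0.43 to 0.60 and of Gm39469 from -1.13 to 0.42, Gm39469 with Tim3 in dKO from -1.04 to 0.50, and Pdcd1 with Tim3 in WT from -0.43 to 0.16.

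The number of genes called depended more on the settings; the cause was not tested. Between genotypes in PD1+Tim3- cells it was 6, against 0 by limma-voom, 232 without a low-count filter, 3 with only the compared groups, 56 with robust empirical Bayes and 0 to 31 with 1 library left out. In PD1+Tim3+ cells it was 82, against 486, 38 and 6 to 413 (no filter, compared groups, 1 library left out). The interaction gave 0, against 95 by DESeq2, 331 without a filter, 4 with robust empirical Bayes and up to 323 with 1 library left out. With Tim3 it was 2223 in WT (1303 by DESeq2, 433 to 2773 with 1 library left out) and 1298 in dKO (132 to 1392). Same-numbered libraries of compared groups did not deviate together over genes (r from -0.058 to -0.015). With 2 libraries in each group this cannot tell whether same-numbered libraries shared a mouse, donor or sort day. With the replicate number as a block, 0, 40 and 716 genes were called between genotypes in PD1+Tim3- and PD1+Tim3+ cells and with Tim3 in dKO, and the block changed no call of the 4 receptors. A left-out library leaves 1 in its group, which is assumed to vary like the others. Depth limits Cx3cr1 most, with as few as 13 counts.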
